A study of Mus musculus with 2 samples.

Results

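Xenobiotic metabolism enzymes were followed as a set of 10 genes in single cells of the mouse duodenal crypt. The genes were taken by symbol, with no measured value in the rule, and all 10 were found among the 31205 gene symbols of the count matrix. The set was chosen with earlier results of these data known. Counts of members set beside shares over all genes are therefore descriptions and no independent comparison. The members were 5 cytochrome P450 genes (Cyp3a11, Cyp3a13, Cyp3a25, Cyp2b10 and Cyp4f40), 4 conjugating enzymes (Gsta1, Gsta4, Ugt2b5 and Sult1d1) and the aldo-keto reductase Akr1c19. The series compares wild-type mice of a group labelled NT with wild-type mice of a group labelled ES, and its title names chronic stress and ageing of intestinal stem cells. The labels do not spell out these letters and do not give the age or sex of the mice. In both groups crypts were released from the duodenum with EDTA, sieved to hold back the villi, and dissociated. The cells of 5 animals per group were pooled into 1 library, so no value below has a biological replicate.

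The matrix holds a library with the barcode suffix 1 and another with the suffix 2, and no label ties a suffix to NT or to ES. They are called library 1 and library 2, and a difference between them has no direction in terms of the treatment. Library 1 gave 54316199 UMIs (unique molecular identifiers, each counted as 1 captured RNA molecule) in 6310 barcodes, and library 2 gave 54877667 in 6446. After filtering, 4057 and 3727 cells were kept, with median depths of 10854 and 11800 UMIs. Among all barcodes, 40 barcode sequences occurred in both libraries, and for 4 of these both copies were in the absorptive stages described here.

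Enterocytes, the absorptive cells of the intestine, arise from stem cells at the crypt base, divide as progenitors and mature as they move up to the villus. They are the first cells to meet compounds taken up from food, and they carry the same classes of detoxifying enzymes as the liver. In phase 1, cytochrome P450 enzymes, which take electrons from cytochrome P450 reductase, and enzymes such as reductases, esterases and dehydrogenases introduce or expose a reactive group. In phase 2, transferases attach glutathione, glucuronic acid or sulfate to it, and transporters then export the product. Nuclear receptors such as PXR (Nr1i2) and CAR (Nr1i3) and the receptor AHR sense foreign compounds and induce many of these genes.

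Cells were put in 5 absorptive stages by the summed UMIs of marker genes, with no member among them. The stem stage needed at least 60 UMIs per 10000 from a list that holds Lgr5, Olfm4 and Smoc2. The cycling stage had less than that and at least 25 from proliferation genes such as Mki67 and Top2a, so dividing stem cells are in the stem stage. Cells at or above the cuts of the enterocyte lists went to those stages instead. Early enterocytes had at least 30 from early genes such as Alpi and Fabp2 or from a list of 20 mature enterocyte genes such as Apoa1, Sis and Slc5a1. Mature cells had at least 100 from the mature list, and they were divided into a lower range of 100 to 200 and an upper range of at least 200. Goblet, Paneth, enteroendocrine and tuft cells and lymphocytes were called by their own marker sums. This gave 633 and 525 stem, 580 and 398 cycling, 540 and 646 early, 198 and 227 lower mature and 122 and 181 upper mature cells in libraries 1 and 2. Genes of the mature list, Apoa4 among them, were bound to be high in the mature ranges because their sum set the cuts. Their levels therefore do not test the label. Apoa4, an apolipoprotein of absorbed fat, was at 1.86 and 2.18 CPM (UMIs of the gene per 1000000 UMIs of the stage and library) in the stem stage and at 433 and 334 CPM in the upper mature range. Alpi, the intestinal alkaline phosphatase of the early list, rose along with it, from 22.0 and 21.5 CPM to 1233 and 911 CPM, so the early list marks entry into the enterocyte line and not an early stage alone. The stages are ranges of a marker score: 388 of the 4050 cells in stages lay within 20% of the cut of 100, and 131 within 20% of the cut of 200.

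The sequences just before the start sites are shown for the genes with the steepest late rise (Cyp3a11, Cyp3a25 and Cyp2b10) and for those that peaked before the upper mature range (Cyp4f40 and Akr1c19), because these groups carry the main contrast among the members. They are RefSeq promoters on build GRCm38.p6, 5′ to 3′ on the strand of the gene, cut to the bases outside every GENCODE M21 exon. RefSeq start regions were found for 9 of the 10 members. Capitals mark matches, on either strand, to the letters listed below the sequences. The Cyp3a11 stretch is chr5:145879965-145880104 on the minus strand, and that of Cyp3a25 is chr5:146009619-146009868 on the minus strand. Cyp2b10 is at chr7:25897408-25897619, Cyp4f40 at chr17:32658636-32658885 and Akr1c19 at chr13:4233490-4233732, all on the plus strand. The Akr1c19 stretch lies inside the GENCODE gene, between its exons.
Cyp3a11: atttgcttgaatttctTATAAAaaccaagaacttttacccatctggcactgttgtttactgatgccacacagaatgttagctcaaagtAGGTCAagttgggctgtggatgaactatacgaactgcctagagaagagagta
Cyp3a25: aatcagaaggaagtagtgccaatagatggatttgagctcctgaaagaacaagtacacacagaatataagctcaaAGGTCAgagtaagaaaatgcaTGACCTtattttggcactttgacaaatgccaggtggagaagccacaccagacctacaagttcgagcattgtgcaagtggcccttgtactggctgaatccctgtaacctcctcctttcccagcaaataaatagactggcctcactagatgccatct
Cyp2b10: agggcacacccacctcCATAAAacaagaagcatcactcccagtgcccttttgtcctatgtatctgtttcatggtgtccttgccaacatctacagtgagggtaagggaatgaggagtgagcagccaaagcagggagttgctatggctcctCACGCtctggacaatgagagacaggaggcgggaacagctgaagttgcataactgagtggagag
Cyp4f40: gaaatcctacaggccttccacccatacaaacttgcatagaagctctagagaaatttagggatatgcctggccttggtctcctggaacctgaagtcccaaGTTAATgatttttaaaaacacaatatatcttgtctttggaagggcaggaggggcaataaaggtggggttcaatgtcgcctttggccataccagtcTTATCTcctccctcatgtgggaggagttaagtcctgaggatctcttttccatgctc
Akr1c19: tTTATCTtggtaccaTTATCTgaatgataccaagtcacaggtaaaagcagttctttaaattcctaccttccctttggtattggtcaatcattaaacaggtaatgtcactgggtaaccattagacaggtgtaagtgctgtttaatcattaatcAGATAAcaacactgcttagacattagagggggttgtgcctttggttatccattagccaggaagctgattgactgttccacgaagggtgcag
The letters were searched in the 250 bases before each start of 32851 RefSeq promoters, on both strands, and no match shown overlaps another. The nuclear receptor half-site AGGTCA was in 14.0% of all promoters and in those of Cyp3a11, Cyp3a25 (2 matches) and Ugt2b5. In Cyp3a11 it begins 162 bases before the start, and in Cyp3a25 the matches begin 176 and 155 bases before it. The HNF4 letters CAAAGTCCA, in 0.384% of promoters, were found in Cyp3a11 at 109 bases before the RefSeq start, in a part that GENCODE counts as exon and that is left out above. The GATA letters AGATAA (9.99% of promoters) were in Cyp4f40 once and in Akr1c19 at 3 places, beginning 249, 235 and 98 bases before the start. The letters TTTATG (CDX2, 10.8%) and GCGTG (the core bound by AHR, 28.2%) were in Cyp2b10 and Sult1d1. GTTAAT (HNF1, 6.43%) was in Cyp4f40 and Sult1d1, TATAAA (12.4%) in Cyp3a11, and TGACNNNGC (the antioxidant response core, 10.2%) in no member's window. A match describes letters only and shows no binding.

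All 10 genes were higher in the mature than in the stem stage of both libraries, by at least 5.40-fold. A gene was counted as apart here when its CPM differed at least 2-fold with a 95% counting interval that excluded 1, the same way in both libraries, among genes with 100 UMIs or more. By this rule 11.3% of the 9002 genes measured were higher in the mature stage and 26.6% were lower. The median log2 ratio of mature over stem was 5.10 and 4.46 over the members in libraries 1 and 2, and -0.42 and -0.36 over all genes, so the members' ratios stand against a median that was itself below 0. Apart from Sult1d1, the members' stem levels had intervals overlapping those of lymphocytes, which should lack these genes, in both libraries. Cyp4f40, for example, was at 20.6 and 17.6 CPM in lymphocytes, from 13 and 15 UMIs. For Ugt2b5 the overlap rests on 0 and 3 lymphocyte UMIs. The size of these ratios thus rests on stem levels that are not read as expression. Within this common rise the members followed 3 courses. Cyp3a11 and Cyp2b10 stayed low until the upper mature range, and Cyp3a25 rose from the early stage on but, like them, most steeply at the last step. Cyp3a13, Gsta1, Gsta4, Ugt2b5 and Sult1d1 rose over the early and mature stages. Of these, Cyp3a13 and Sult1d1 were already higher in the cycling than in the stem stage of both libraries, beyond counting error. Cyp4f40 and Akr1c19 were highest in the lower mature range and lower again in the upper one.

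**Figure D1:**
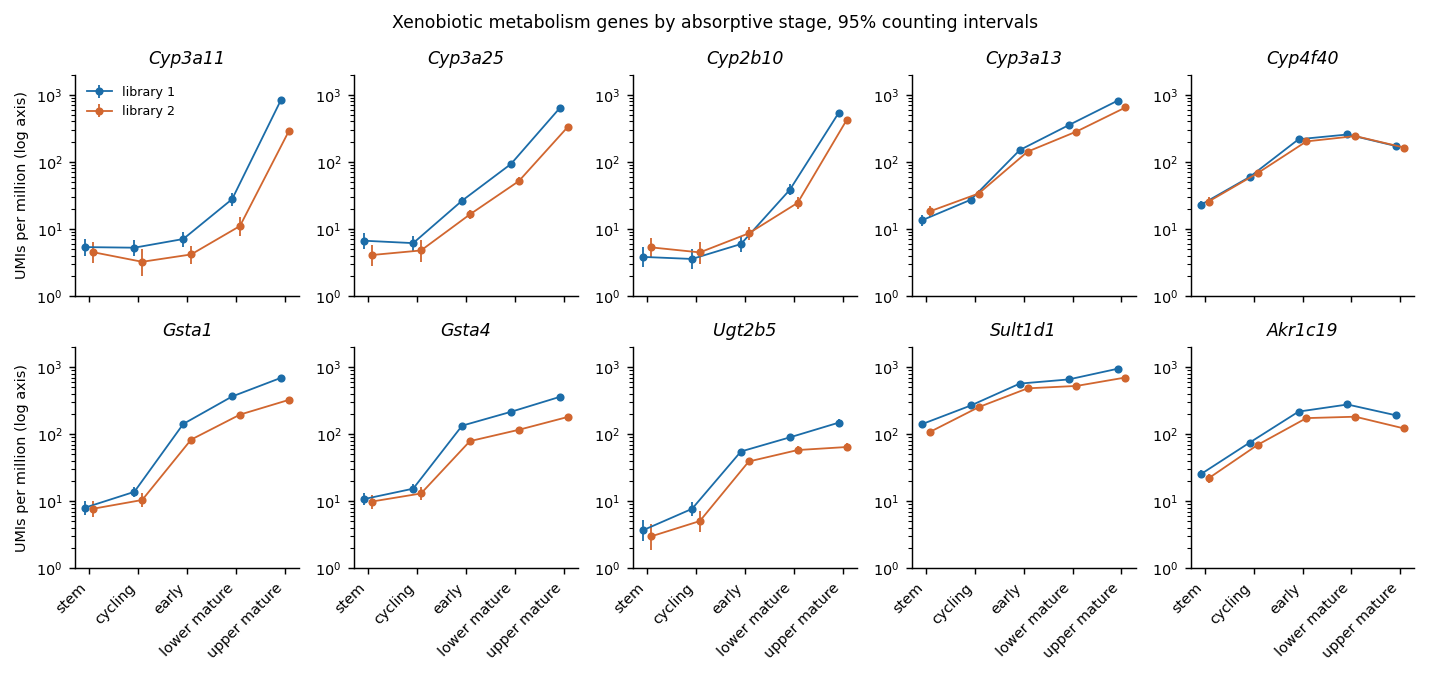
Levels in CPM (log axis) of the 10 members in 5 absorptive stages, stem to upper mature, with library 1 in blue, library 2 in orange and 95% Poisson intervals as bars. Cyp3a11 and Cyp2b10 climb mainly at the last step and Cyp3a25 most steeply there, whereas Cyp4f40 and Akr1c19 turn down there in both libraries.

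Cyp3a11 encodes the mouse enzyme that is the closest functional counterpart of human CYP3A4, which oxidises a wide range of drugs, and it is a standard target of PXR. It was at 5.35 and 4.49 CPM in the stem, 5.24 and 3.23 in the cycling and 7.06 and 4.15 in the early stage of libraries 1 and 2. It then reached 27.8 and 11.04 CPM in the lower and 842 (95% interval 799 to 886) and 288 (268 to 308) CPM in the upper mature range. The step from the lower to the upper range was 30.3-fold in library 1 and 26.1-fold in library 2. Lymphocytes, which should not express the gene, had 7.91 and 3.53 CPM, and the intervals of the stem, cycling and early stages overlapped those of lymphocytes. The lymphocyte levels rest on 5 and 3 UMIs, and the highest count in a single early cell was 7 and 4 Cyp3a11 UMIs, so these low levels are read neither as expression nor as a difference between these stages. The upper mature range held 122 and 181 cells but 79.6% and 77.0% of all Cyp3a11 UMIs of the kept cells. With each cell thinned to 2000 UMIs, Cyp3a11 was detected in 53.3% (95% exact interval 44.0 to 62.4) and 30.4% (23.8 to 37.6) of upper mature cells, against 1.96% and 0.538% of lymphocytes. Before thinning these shares were 76.2% and 63.5% of upper mature cells, at median depths of 14050 and 14414 UMIs, and 2.45% and 1.61% of lymphocytes, at 2675 and 3554 UMIs.

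Cyp2b10, the classical target gene of CAR, took a similar course. It was at 3.82 and 5.30 CPM in the stem and 5.94 and 8.58 CPM in the early stage, and at 38.3 and 24.4 CPM in the lower mature range. In the upper mature range it reached 538 (504 to 574) and 417 (394 to 442) CPM, 14.1-fold and 17.1-fold above the lower one. That range held 73.5% and 75.1% of its UMIs. In the stem stage its level did not differ from that of lymphocytes (3.16 and 7.05 CPM, from 2 and 6 UMIs) beyond counting error.

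Cyp3a25, another member of the CYP3A family, began to rise earlier. It went from 6.66 and 4.08 CPM in the stem stage to 26.3 and 16.4 in the early stage, 92.8 and 51.5 in the lower and 636 (599 to 675) and 330 (309 to 352) CPM in the upper mature range. The last step was 6.85-fold and 6.41-fold, and 58.2% and 61.3% of its UMIs were in upper mature cells. Cyp3a13 belongs to the same family and is the member best known from the intestine. It stood at 13.4 and 18.2 CPM in the stem, 27.2 and 33.7 in the cycling and 150 and 142 in the early stage, and at 352 and 283 CPM in the lower and 815 and 645 CPM in the upper mature range. Its last step was 2.32-fold and 2.28-fold, and it was detected in 82.0% and 69.1% of thinned upper mature cells. The 3 Cyp3a genes thus differed in course: the last step was the largest for Cyp3a11 and the smallest for Cyp3a13, with intervals that did not overlap in either library.

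Cyp4f40 belongs to the CYP4F family, whose enzymes hydroxylate fatty acids and eicosanoids. It was at 22.8 and 25.6 CPM in the stem, 59.4 and 67.7 in the cycling, 217 and 201 in the early and 255 and 242 in the lower mature cells, and at 171 and 163 CPM in the upper mature cells. The early stage exceeded the upper mature range 1.27-fold and 1.24-fold, with intervals that excluded 1.

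Gsta1 and Gsta4 encode alpha-class glutathione transferases, and the enzyme of Gsta4 prefers reactive aldehydes from lipid peroxidation. Gsta1 rose from 8.08 and 7.75 CPM in the stem to 142 and 83.0 in the early stage, 365 and 196 in the lower and 693 and 325 CPM in the upper mature range. Gsta4 rose from 10.8 and 9.93 CPM to 134 and 78.8, 216 and 116, and 361 and 181 CPM over the same stages. Both genes were several times higher in early than in cycling cells, where Gsta1 was at 13.8 and 10.5 and Gsta4 at 15.4 and 13.1 CPM. Gsta1 needs a caution: 90.0% of the 50-base runs in the last 500 bases of its longest coding transcript also occur in other genes, 88.7% of them in Gm3776 and 27.7% in Gsta2. Reads of these genes cannot be told apart there, so the Gsta1 values are uncertain. For the other members this share was at most 7.54%, for Cyp2b10 with Cyp2b13, which had no UMI in the early and mature stages.

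Ugt2b5, a UDP-glucuronosyltransferase, which couples glucuronic acid to its substrates, went from 3.71 and 2.99 CPM in the stem to 55.2 and 39.2 in the early, 89.8 and 58.1 in the lower and 149 and 64.4 CPM in the upper mature cells. In library 2 the lower and upper ranges did not differ beyond counting error (1.11-fold, 0.906 to 1.36), whereas in library 1 the upper one was 1.66-fold higher (1.39 to 1.98). Sult1d1, a cytosolic sulfotransferase that acts on catecholamines and other phenols, had the smallest mature over stem ratio of the members. It was already at 141 and 108 CPM in the stem and 268 and 253 in the cycling stage, and it reached 568 and 483 CPM in early, 656 and 524 in lower mature and 946 and 700 CPM in upper mature cells. Mature over stem it was 5.40-fold (5.07 to 5.76) and 5.56-fold (5.15 to 6.003) higher.

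Akr1c19 is an aldo-keto reductase of a family that reduces steroids and other carbonyl compounds. It stood at 25.3 and 22.0 CPM in the stem, 75.1 and 69.2 in the cycling and 217 and 174 CPM in the early stage. It peaked at 277 and 182 CPM in the lower mature range and fell to 191 and 122 CPM in the upper one, which was below the early stage by 1.14-fold and 1.43-fold. In library 2 its early and lower mature levels did not differ beyond counting error. In all, 8 of the 10 members were highest in the upper mature range in both libraries, against 14.3% of the 10067 genes with 100 UMIs in each library. The other two, Cyp4f40 and Akr1c19, were highest in the lower mature range, as were 5.68% of all genes. With the mature and early cuts raised 1.5 times, only 5 of the 10 were highest in the upper range of both libraries.

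Finer ranges of the mature marker sum showed the same 3 courses, except that Gsta1, Gsta4 and Ugt2b5 did not rise up to the top range. From 60 to 100 marker UMIs per 10000 Cyp3a11 was at 9.24 and 4.44 CPM, from 200 to 300 at 381 and 110 CPM, and from 400 on at 1545 and 590 CPM. The top range held only 12 cells in library 1, and the range of 300 to 400, with 57 and 56 cells, was already at 1124 and 256 CPM. Cyp4f40 fell from 250.1 and 252 CPM in the range of 150 to 200 to 118 and 139 CPM in the top range, and Akr1c19 from 242 and 186 to 161 and 99.0 CPM. Gsta1 was at 726 and 394 CPM in the range of 200 to 300 and at 643 and 237 CPM in the top range. Between the same ranges Gsta4 went from 364 and 228 to 246 and 128 CPM, and Ugt2b5 from 166 and 64.3 to 123 and 59.9 CPM. The intervals of these ranges overlapped for Ugt2b5 in both libraries and for Gsta1 in library 1.

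**Figure D2:**
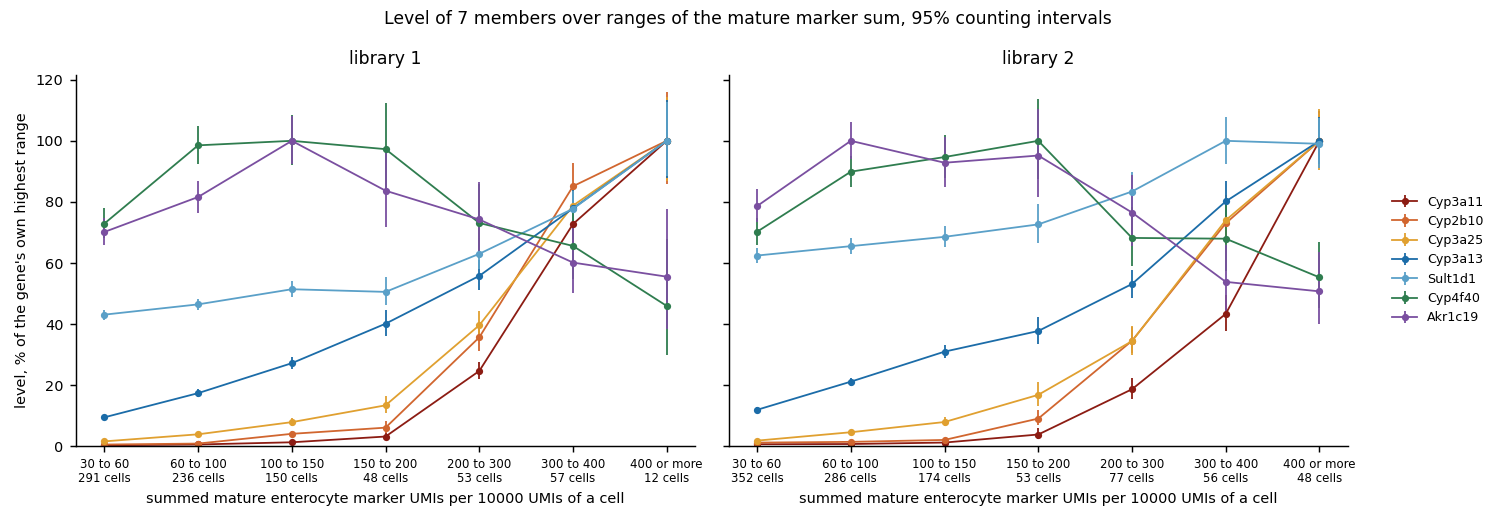
Levels of 7 members in ranges of the summed mature marker UMIs per 10000 UMIs of a cell, as a percentage of each gene's own highest range, with 95% Poisson intervals and the number of cells under each range. Cyp3a11, Cyp2b10 and Cyp3a25 climb most from the range of 200 to 300 on, and Cyp3a13 climbs throughout. Sult1d1 climbs with a small dip in each library that lies within counting error. Cyp4f40 and Akr1c19 peak below 200 and are lowest in the last range, which rests on 12 cells in library 1.

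Within the upper mature range the members also differed in how evenly cells carried them. With cells thinned to 5000 UMIs (115 and 171 cells, 7 and 10 left out), Cyp3a11 ranged from 0 to 27 UMIs per cell with a median of 2 in library 1, and from 0 to 28 with a median of 0 in library 2. The 12 and 18 cells with the most Cyp3a11 held 42.8% and 56.2% of its UMIs. For Cyp3a13 this share was 22.4% and 25.3%, with medians of 4 and 3 UMIs and highest counts of 13 and 10. Cells with a Cyp3a11 UMI more often had a Cyp2b10 UMI (88.8% and 84.3%) than cells without (51.4% and 48.9%). Cyp3a25 showed the same order, at 91.3% and 79.5% against 68.6% and 62.5%. The order was the opposite for Cyp4f40, at 47.5% and 42.2% against 60% and 59.1%. The cells with Cyp3a11 were also further along, with median mature marker sums of 330 and 374 per 10000 against 262 and 281, and the part of that difference in these shares was not tested.

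Outside the absorptive line most members were low. Gsta4 and Sult1d1 were exceptions in goblet cells, the mucus-secreting cells. Sult1d1 was there at 176 and 129.8 CPM and in 22.5% and 18.9% of cells after thinning. Gsta4 was at 184 and 166 CPM, which in library 2 did not differ from its upper mature level beyond counting error (1.09-fold, 0.973 to 1.21). After thinning Gsta4 was found in 24.8% and 19.3% of goblet cells but 1.47% and 0.538% of lymphocytes. Enteroendocrine cells, the hormone-secreting cells, carried Sult1d1 at 370 and 524 CPM and Akr1c19 at 132 and 136 CPM, the latter not beyond counting error from the 122 CPM of upper mature cells in library 2. After thinning, Sult1d1 was detected in 38.3% (24.5 to 53.6) and 58.9% (46.8 to 70.3) of the 47 and 73 enteroendocrine cells and in 1.96% and 2.15% of lymphocytes. The Cyp3a11, Cyp3a25 and Cyp2b10 levels in enteroendocrine cells lay between 5.48 and 12.8 CPM and did not differ from those in lymphocytes beyond counting error. Ugt2b5 had no UMI in the enteroendocrine cells of library 1, which allows up to 5.49 CPM there. Paneth cells, the antimicrobial cells of the crypt base, held between 2.43 CPM of Ugt2b5 and 73.5 CPM of Sult1d1. The 22 and 50 tuft cells also carried Sult1d1, at 142 and 125 CPM, from 30 and 65 UMIs.

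**Figure D3:**
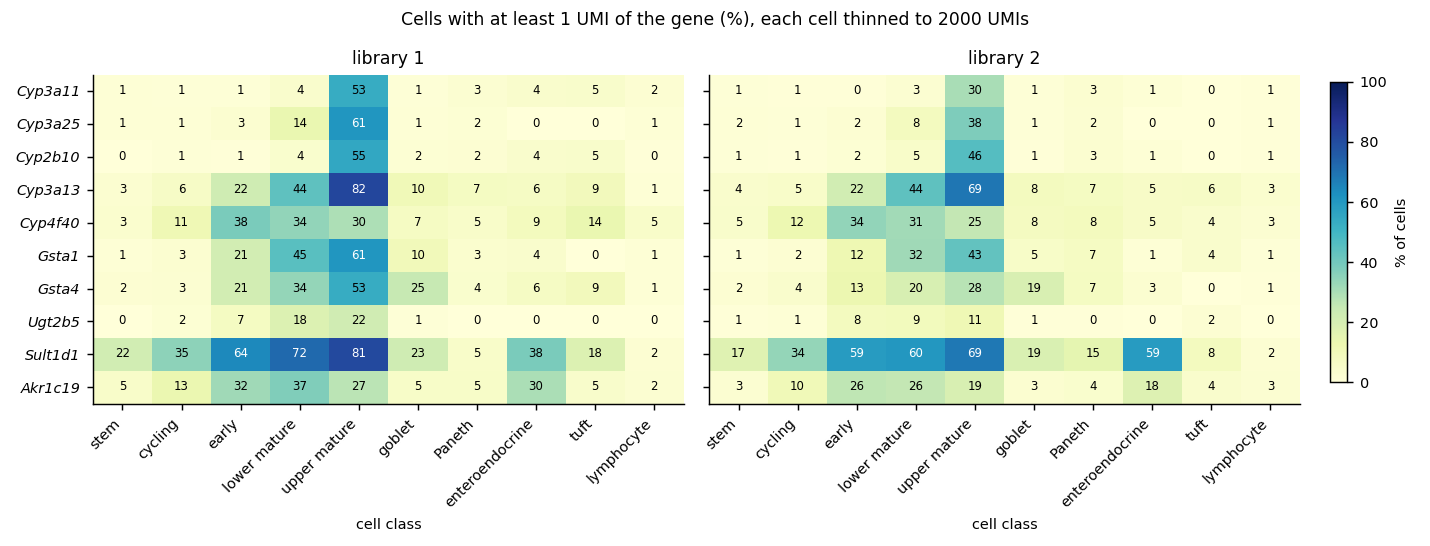
Percentage of cells with at least 1 UMI of each member, with every cell thinned to 2000 UMIs, in 10 cell classes of library 1 (left) and library 2 (right). The darkest cells are those of the upper mature range, with Gsta4 (24.8% and 19.3%) and Sult1d1 (22.5% and 18.9%) in goblet cells and Sult1d1 (38.3% and 58.9%) and Akr1c19 (29.8% and 17.8%) in enteroendocrine cells also high, and lymphocytes are the class that should lack these genes.

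Between the libraries, members were lower in library 2 in the enterocyte stages. A gene was counted as apart here from a 1.5-fold difference on, with an interval that excluded 1, among genes with 100 UMIs over both libraries in that stage. In the mature stage all 10 ratios of library 2 to library 1 were below 1 and 6 of 10 members were apart, against 1.18% of 7768 genes lower and 3.78% higher. Their median log2 ratio was -0.72, and that of all genes 0.04. In the early stage 4 of 10 were apart and lower, against 1.22% of all genes lower and 2.9% higher, and the median was -0.41. In the lower mature range 7 were lower (1.44% of all genes lower, 3.95% higher) and in the upper mature range 6 (1.92% lower, 4.37% higher), and no member was apart and higher in any of these stages. In the stem stage 6 of 10 members had enough UMIs and none was apart (0.947% of all genes lower, 2.01% higher). In the cycling stage 7 were measured and none was apart (1.44% lower, 2.3% higher).

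Cyp3a11 had the lowest ratio in the mature stage. It was at 330 CPM in library 1 and 128 CPM in library 2, a ratio of 0.389 (0.357 to 0.423), and in the upper mature range the ratio was 0.342 (0.313 to 0.373). Gsta1 was at 487 and 251 CPM, a ratio of 0.515 (0.483 to 0.548), and its near copy Gm3776 showed a ratio of 0.437 (0.362 to 0.526). Gsta4 was at 270 and 144 CPM with a ratio of 0.533 (0.489 to 0.580), Ugt2b5 at 112 and 60.8 CPM with 0.544 (0.477 to 0.621), and Cyp3a25 at 294 and 170 CPM with 0.576 (0.532 to 0.624). Akr1c19 was at 245 and 157 CPM, a ratio of 0.639 (0.587 to 0.695). The remaining 4 did not reach the 1.5-fold rule: Sult1d1 at 0.785 (0.750 to 0.821), Cyp3a13 at 0.834 (0.790 to 0.880), Cyp2b10 at 0.853 (0.785 to 0.926) and Cyp4f40 at 0.930 (0.858 to 1.01). The mature stage pools its lower and upper ranges, with 198 and 122 cells in library 1 but 227 and 181 in library 2. Within the ranges Cyp2b10 was lower than in the pool, at 0.639 (0.480 to 0.848), where it was apart, and 0.775 (0.711 to 0.846). The libraries were 1 pool each, and these intervals cover counting error only, not differences between animals or preparations.

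**Figure D4:**
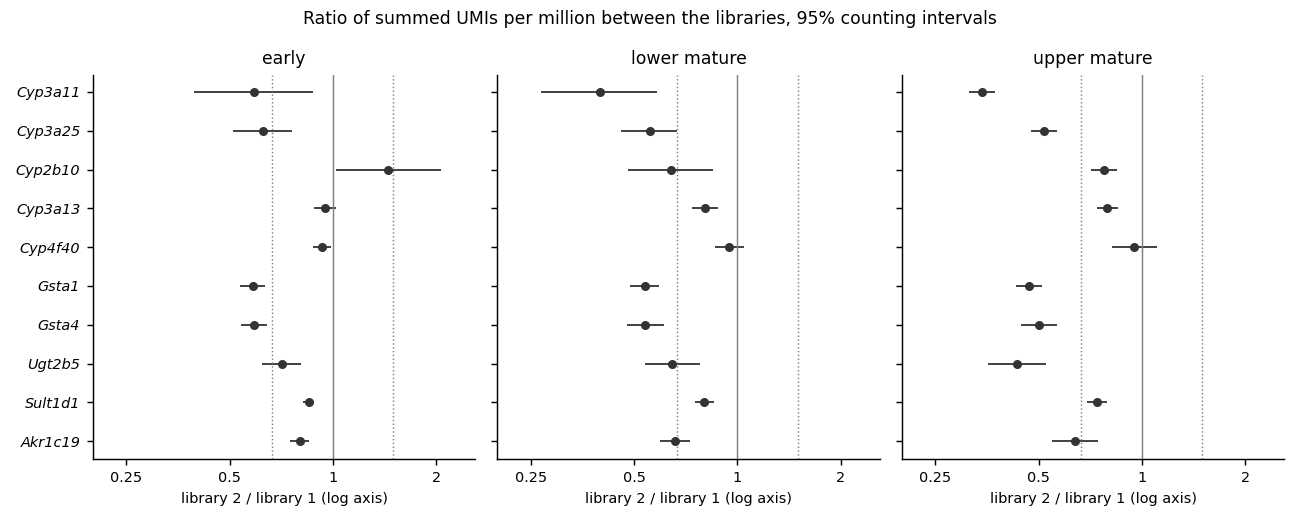
Ratio of CPM in library 2 to library 1 (log axis) for the 10 members in the early, lower mature and upper mature cells, with 95% intervals; the dotted lines mark a 1.5-fold difference. In the upper mature range Cyp3a11 lies lowest at 0.342 and Cyp4f40 lies at 0.951, with an interval that includes 1.

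In the early stage Gsta1 (ratio 0.584, 0.536 to 0.636), Gsta4 (0.588, 0.539 to 0.643), Cyp3a25 (0.624, 0.512 to 0.761) and Cyp3a11 (0.589, 0.393 to 0.875) were apart, the last from 63 and 46 UMIs at a level whose interval overlapped that of lymphocytes. Cyp2b10 went the other way there, at 5.94 and 8.58 CPM (1.44, 1.02 to 2.06), without reaching 1.5-fold. Over the 7 ranges of the mature marker sum, 8 of the 10 members were below library 1 in every range, against 2.66% of 9752 genes. Without the range of 12 cells it was again 8, against 4.22% of genes. The exceptions were Cyp2b10, below 1 in 4 of 7 ranges with ratios from 0.397 to 1.63, and Cyp4f40, below 1 in 4 of 7 with ratios from 0.895 to 1.18.

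Several other measures moved with the libraries in the same stages, and their part in the ratios was not tested. The summed mature list was close to level, at 1.05, 0.992 and 1.08 times library 1 in early, lower and upper mature cells, but the early list was lower in library 2, at 0.803, 0.656 and 0.721. Marker sums of goblet (1.85, 2.07 and 2.05 times), Paneth (1.44, 1.52 and 1.501), enteroendocrine (2.50, 1.99 and 2.47), tuft (1.99, 3.21 and 4.72, at most 37.9 CPM) and lymphocyte genes (1.54, 1.86 and 1.55) were higher in library 2 in those 3 stages, as was the stem list (1.29, 1.47 and 1.205). The Reg3 genes described below stood at 1.29, 1.04 and 0.8001 times library 1. All 9 goblet and all 7 Paneth markers had ratios above 1. In CPM the goblet list summed to between 720 and 1596 and the Paneth list to between 2235 and 3707 in those stages. Lists of B or myeloid cells and of stroma summed to at most 3.61 CPM. The list of liver and pancreas genes summed to 16.6 and 11.9 CPM in early, 11.9 and 8.93 in lower mature and 12.1 and 10.7 CPM in upper mature cells, with Ttr at 6.16 and 4.88 CPM in early cells, and Alb, which defines liver cells, was at 0 in the early, lower mature and upper mature cells of both libraries. The median share of mitochondrial UMIs was 12.3% and 10.8% in early and 12.1% and 11.4% in mature cells.

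With cells above 10% mitochondrial UMIs left out, no member was apart in the early stage (121 and 262 cells), where Gsta1 had a ratio of 0.864 (0.731 to 1.02) and Gsta4 of 0.732 (0.623 to 0.861). Cyp3a11 stood at 0.568 (0.248 to 1.33) from 12 and 15 UMIs, Cyp3a25 at 0.768 (0.517 to 1.15), and Cyp3a13 turned to 1.17 with an interval above 1 (1.02 to 1.35). In the mature stage (62 and 145 cells) there were still 6, but not the same ones: Cyp3a11 was at 0.168 (0.142 to 0.198), Cyp2b10 became apart at 0.533 (0.457 to 0.623) and Akr1c19 was no longer apart at 0.752. In the mature cells above 10% (258 and 263 cells) Cyp3a11 was at 0.585 (0.529 to 0.645) and Cyp2b10 at 1.10 (0.998 to 1.22), and 5 members were apart, without Cyp3a25 (0.680, 0.617 to 0.748). Of the 10 members, 9 had intervals below 1 in the mature cells at or under 10%, and 8 in those above it. An interval below 1 asks for less than the 1.5-fold rule. The shares over all genes were not computed for the cells split at 10%, so a shift shared with other genes cannot be judged from these counts. Thinned to 2000 UMIs, 2 members were apart in the early stage, Gsta1 and Gsta4.

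In goblet cells 6 members were measured, all with ratios below 1, and Gsta1 (0.661, 0.531 to 0.822) and Akr1c19 (0.451, 0.353 to 0.575) were apart, against 1.54% of genes lower and 2.59% higher. In Paneth cells the direction was the opposite. Of 5 members measured, Cyp3a13 (1.67, 1.24 to 2.26), Cyp4f40 (1.79, 1.31 to 2.46) and Gsta1 (1.55, 1.04 to 2.34) were higher in library 2, against 5.93% of genes higher and 5.35% lower, at levels of at most 42.8 CPM. Enterocyte markers moved the same way in these Paneth cells, with median sums of the mature list of 7.59 and 13.1 and of the Reg3 genes of 9.86 and 20.6 per 10000, and their part in the ratios was not tested.

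Antimicrobial lectins of the Reg3 family are expressed by enterocytes and were used for no stage, so upper mature cells were also described by their Reg3 level. Cells with at least 100 Reg3 UMIs per 10000 were set against cells with under 30 in each library. Cyp3a11 was at 661 against 1351 CPM in library 1 (50 and 27 cells) and at 166 against 332 CPM in library 2 (64 and 48 cells), ratios of 0.489 (0.431 to 0.555) and 0.499 (0.405 to 0.613). The cells between these cuts were at 789.7 and 355 CPM, so in library 2 they did not lie between the other groups. Akr1c19 (0.571 and 0.498), Gsta4 (0.580 and 0.609), Gsta1 (0.647 and 0.645) and Sult1d1 (0.877 and 0.862) also had intervals below 1 in both libraries. These 5 of 9 members measured compare with 3.38% of 1866 genes. The intervals of Cyp3a13 held 1, at 1.02 (0.886 to 1.18) and 1.05 (0.932 to 1.19). Ugt2b5, with ratios of 0.665 and 0.570, had too few UMIs to be counted. Cyp2b10 went in opposite directions, at 1.22 (1.02 to 1.46) in library 1 and 0.580 (0.496 to 0.677) in library 2. The median mature marker sum was 326 against 271 per 10000 in library 1 and 315 against 326 in library 2. The order was not the same for all members in less mature cells. In early cells Cyp3a13 was higher in cells with much Reg3, at 1.39 (1.18 to 1.63) and 1.40 (1.22 to 1.61), as was Cyp4f40 at 1.41 and 1.22. Akr1c19 was again lower there, at 0.658 (0.556 to 0.774) and 0.779 (0.676 to 0.896). Gsta1 went in opposite directions there, at 0.791 (0.653 to 0.953) in library 1 and 1.41 (1.17 to 1.69) in library 2. The early cells with much Reg3 were also further along, with median mature marker sums of 68.2 and 71.1 per 10000 against 50.1 and 49.5. The part of that difference in these ratios was not tested. In lower mature cells Gsta1 (0.617 and 0.399), Gsta4 (0.540 and 0.587), Ugt2b5 (0.272 and 0.606) and Akr1c19 (0.617 and 0.687) had intervals below 1 in both libraries, whereas those of Cyp3a11, at 0.545 and 0.855, held 1.

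The wider pathway was described by a list of 129 genes in 9 roles, without the 10 members. Of 98 measured in both stages, 68 were apart and higher in the mature than in the stem stage and 3 were lower, beside 11.3% and 26.6% of all genes. The median log2 ratio was 2.12 and 1.98. Thinned to 2000 UMIs, 40 were higher.

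**Figure D5:**
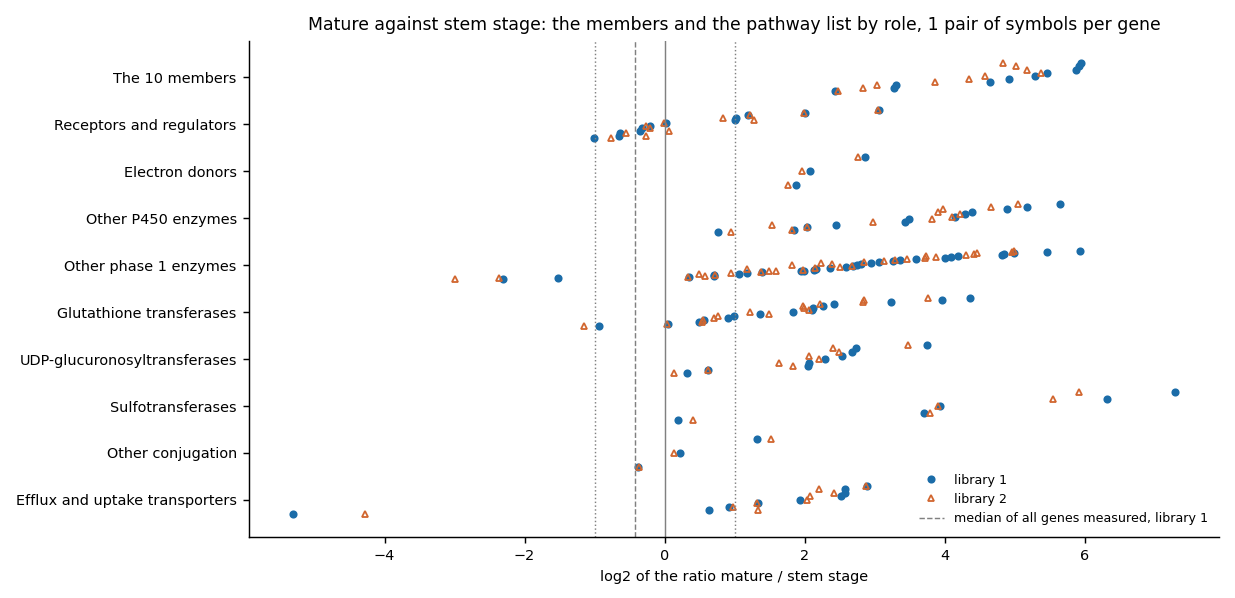
Log2 ratio of CPM in the mature over the stem stage for the 10 members and for the measured genes of the pathway list by role, with library 1 as filled circles and library 2 as open triangles; the dotted lines mark a 2-fold difference and the dashed line the median of all genes in library 1 (-0.42). All members lie to the right of the 2-fold line, whereas 4 of 12 receptors and regulators do so in both libraries.

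Of the receptors and regulators 4 of 12 were higher. Nfe2l2, the NRF2 factor of the antioxidant response, was 2.29-fold and 2.33-fold higher and Hnf4g, an intestinal nuclear receptor, 8.37-fold and 8.27-fold, while Hnf4a (0.497 and 0.590) and Vdr, the vitamin D receptor (0.639 and 0.683), were not apart. All 3 electron donors were higher: Por, the P450 reductase (4.22 and 3.88), Cyb5a (3.66 and 3.41) and Cyb5r3 (7.24 and 6.75), the cytochrome b5 and its reductase. Of the other P450 genes 11 of 12 were higher, among them Cyp4f14 (19.6 and 18.6), Cyp2d26 (20.96 and 14.9), Cyp2c65 (10.8 and 7.89) and Cyp2j6 (5.43 and 2.90). Other phase 1 enzymes gave 23 of 30 higher. Adh6a (31.6 and 21.9), Maoa, the monoamine oxidase (8.32 and 7.17), and Adh1, an alcohol dehydrogenase (6.70 and 3.51), rose, and Akr1a1 (1.27 and 1.26) was not apart. The 2 lower ones were the carboxylesterase Ces1d (0.201 and 0.126) and the epoxide hydrolase Ephx1 (0.347 and 0.194), named after their values were seen.

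Among conjugating enzymes, 9 of 15 other glutathione transferases were higher, with Gstm3 at 20.5 and 13.5 and Mgst3 at 4.33 and 3.98, while Gsto1 (1.48 and 1.46) and Mgst1 (1.87 and 1.63) were not apart. UDP-glucuronosyltransferases and their donor enzymes gave 7 of 9, with Ugt2a3 (13.4 and 11.1), Ugdh, which makes UDP-glucuronic acid (6.37 and 5.60), and Ugt2b34 (4.12 and 3.57) higher and Ugp2 (1.54 and 1.53) not apart. The sulfation genes gave 4 of 5, with Papss2, which makes the sulfate donor, at 79.6 and 46.5, Sult1b1 at 13.01 and 13.8 and Sult6b2 at 157 and 60.6, the last from only 6 and 14 UMIs in the stem stage. Papss1 (1.14 and 1.32) was not apart. Of other conjugating enzymes Nat2 (2.50 and 2.87) was higher and Tpmt (0.767 and 0.779) was not apart, with Glyat below the count minimum. Transporters gave 6 of 9, including the efflux pumps Abcc2 (7.40 and 7.37), Abcb1a (5.95 and 5.35), Abcg2 (3.81 and 4.10) and Abcc3 (2.51 and 2.49). Abcc1 was the gene of this role that was lower in the mature stage, from 16.8 and 14.7 CPM to 0.426 and 0.758, and it was named after its values were seen.

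Between the libraries, in the mature stage, 7 of 101 genes of the list were apart and lower in library 2 and 1 was higher, beside 1.18% and 3.78% of all genes. The median log2 ratio was -0.10, and that of all genes 0.04. The 7 were Akr1c14 (0.519), Cyp2c55 (0.546), Cyp2j6 (0.552), Ces2a (0.561), Gsta2 (0.561), Cyp2c66 (0.564) and Gstm1 (0.583), and the higher one was Fmo1 (1.51), all named after their values were seen. Gsta2 shares part of its end sequence with the member Gsta1, so its ratio, from 57 and 45 UMIs, may not be separate from that of Gsta1. In the early stage 8 of 102 were lower and 3 higher (all genes: 1.22% and 2.9%), with Sult6b2 at 16.9 and 60.8 CPM (3.59, 3.01 to 4.31), Fmo1 (1.69) and Sult2b1 (1.60) as the higher ones. In the upper mature range 11 of 91 were lower (all genes: 1.92% lower and 4.37% higher), among them Papss2 at 2410 and 1547 CPM (0.642, 0.615 to 0.670), Aldh1a1 (0.653) and Gstm1 (0.530), and none was higher.

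The genes most like a member were sought by the Pearson correlation of log2(CPM + 1) over 20 points, 10 cell classes in each library, among 10888 genes that were neither member nor marker. The points share libraries and depth, and the values describe likeness in these cells only. Cyp3a11 was most like Slc5a4a (r = 0.931), Cyp2c55 (0.910) and Cyp1a1 (0.902), and Cyp2b10 was like Slc5a4a (0.963) and Gdpd2 (0.952). For Cyp3a25 they were 2010003K11Rik (0.949), Akp3 (0.948) and Slc30a10 (0.945). Cyp3a13 and Gsta1 shared Aldh1a1 (0.980 and 0.975) and Creb3l3 (0.974 and 0.968), beside Papss2 (0.980) for Cyp3a13 and Il18 (0.971) for Gsta1. Cyp4f40 was most like Car4 (0.974), Serpinb6a (0.972) and Slc7a9 (0.972), and Akr1c19 like its relative Akr1c13 (0.949), Vat1 (0.931) and Cda (0.926). Sult1d1 was most like Cpt2 (0.969), Cda (0.967) and Reep6 (0.966), Ugt2b5 like Dgat1 (0.954), Ly6g2 (0.951) and Smlr1 (0.947), and Gsta4 like P4hb (0.937), Hsd17b2 (0.929) and Cx3cl1 (0.927). Among the members themselves Cyp3a13 and Gsta1 were most alike (0.978) and Cyp3a11 and Akr1c19 least (0.428).

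By GENCODE M21 on mm10, the members Cyp3a11 (chr5:145854426-145879964) and Cyp3a25 (chr5:145977194-146009618) lie close together on the minus strand. Cyp3a13 lies apart from them at chr5:137892932-137921619, also on the minus strand, and overlaps the gene Gm15502 of the same strand. Ugt2b5 (chr5:87124960-87140318) and Sult1d1 (chr5:87554645-87569027) are near each other on the minus strand of chromosome 5, and Gsta4 (chr9:78182774-78209349) and Gsta1 (chr9:78230656-78242684) on the plus strand of chromosome 9. Cyp2b10 is at chr7:25897620-25926624, Cyp4f40 at chr17:32658900-32676914 and Akr1c19 at chr13:4228700-4252843, where it overlaps Marcksl1-ps4, all on the plus strand.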

How the data were processed

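The authors deposited raw UMI counts per gene and barcode as 1 integer matrix of both libraries, with no normalization per the file headers. Per the submitters' processing notes, Cell Ranger 2.1.1 and the build mm10 were used; the cell calling is not stated. A 10X Chromium 3' kit is named by the labels, but the barcodes are longer than such a kit's, so the capture chemistry is not settled here. Identical symbols were summed. Of 31253 feature identifiers 99.8% were in GENCODE M21.

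Kept cells had 500 or more genes and no more than 25% mitochondrial UMIs, and stages needed 2000 UMIs. No doublet caller was run. Cells at or above low cuts of lymphocyte, secretory, myeloid or stromal markers were kept out of the stages. The marker cuts were set after seeing the marker sums. The members and lists were chosen with earlier results of these data known. CPM are counts summed per stage and library, with exact Poisson, conditional (ratios) and Clopper-Pearson (shares) 95% intervals, which cover counting error only, as does the floor of 3 counts. With 1 library per group no p-value was computed. Named are all members, up to 4 genes per pathway role with the most UMIs, and the 3 genes most like each member; some of these are not reported here. The ratio rule was tried on simulated Poisson counts with known changes. These held no variation between pools, so the trial covers counting error only. Python 3.11.15, numpy 2.4.6, scipy 1.17.1, pandas 2.3.3 and matplotlib 3.10.9 were used. Alternatives changed the cell filter, deep cells, stage cuts, thinning, cell weights, scaling, count minimum and fold; cells above 10% mitochondrial UMIs alone were tried after seeing the data.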

Additional observations from a re-analysis of the deposited data

Results flagged for a closer look

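Ratios of library 2 to library 1 with intervals on opposite sides of 1 in different cell classes were found for 5 members, and the differences between classes were not tested. Cyp2b10 was at 1.44 in early and 0.639 in lower mature cells. Cyp3a13 was at 1.67 in Paneth and 0.792 in upper mature cells, and Gsta1 at 1.55 and 0.469 in the same classes. Cyp4f40 was at 1.79 in Paneth and 0.822 in goblet cells. Paneth cells were not the only class above 1 for these genes. Cyp3a13 was at 1.36 (1.05 to 1.75) in stem and 1.24 (1.03 to 1.48) in cycling cells, and Cyp4f40 at 1.14 (1.004 to 1.29) in cycling cells. Sult1d1 was at 1.42 in enteroendocrine and 0.739 in goblet cells.

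The 2253 and 2719 barcodes removed by the cell filter, with median mitochondrial shares of 35.0% and 35.4%, held the late genes at higher levels than the kept cells. Cyp3a11 was at 136 CPM there in library 1 and 57.8 CPM in library 2, against 38.1 and 22.4 CPM in kept cells. Cyp3a25 was at 126 and 62.0 CPM against 39.3 and 32.3 CPM. Cyp2b10 was at 73.8 and 57.0 CPM against 26.4 and 33.4 CPM. The mature marker list was also higher in the removed barcodes, at 6518 and 6739 CPM against 3909 and 5552 CPM. Over the members together the removed barcodes held 11.6% and 11.9% of their UMIs, beside 10.9% and 15.2% of all UMIs. The share was larger for the late genes: 30.4% and 31.5% for Cyp3a11, 28.2% and 25.5% for Cyp3a25 and 25.6% and 23.4% for Cyp2b10. Cyp3a13 and Cyp4f40 also lay above the share of all UMIs in both libraries, whereas Gsta1, Gsta4, Ugt2b5, Akr1c19 and Sult1d1 lay below it.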

How the results depend on the processing

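All 10 members stayed apart and higher in the mature than in the stem stage under each alternative except thinning, where it was 9, since Ugt2b5 fell under the count minimum. Members lower in library 2 numbered 4 in the early stage, and 0 with a 2-fold rule, 0 with at least 1000 genes and at most 10% mitochondrial UMIs and 2 after thinning. In the mature stage they numbered 6, and 1 with the 2-fold rule, and in the upper mature range 6, and 3 with the 2-fold rule. Using only cells above 10% mitochondrial UMIs, chosen after seeing the data, gave 4, 5 and 6. Members highest in the upper mature range numbered 8, and 5 with cuts raised 1.5 times. Pathway genes higher in the mature stage numbered 68, and 40 after thinning, where fewer genes reach the count minimum. Shares over all genes were not computed under the alternatives. Pathway genes lower in library 2 in the early stage numbered 8, and 0 with the 2-fold rule, 3 with that stricter cell filter, 4 after thinning and 4 with cuts lowered 1.5 times. In the mature stage they numbered 7, and 0 with the 2-fold rule and 12 with a minimum of 20 UMIs. Of the single library ratios under alternatives, 296 kept their call, 28 lost it and 6 gained it, and no called ratio changed direction. Of the levels in CPM, 66 stayed within their counting interval and 94 moved beyond it. The 2-fold rule asks for a larger difference, and the cause of the other changes was not tested. No paired analysis was possible because each group is 1 pooled library with no replicate number. In stem cells Cyp3a11, Cyp3a25, Cyp2b10 and Ugt2b5 had too few UMIs for a comparison of the libraries.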
